A study of Mus musculus with 60 samples.

Results

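Keratin genes were taken as all genes on the arrays whose single gene symbol is Krt followed by a number and nothing else. The rule found 44 genes, of 18193 genes with a single symbol, and they were measured by 55 probe sets, 43 on chip A and 12 on chip B. For a gene with several probe sets (8 of the 44), the probe set that was brightest over the 10 pools of a time point was used. The rule used symbols and brightness, and neither genotype nor age. It leaves out 4 genes whose symbol ends in a letter (Krt6a, Krt6b, Krt33a and Krt33b) and 1 probe set shared by Krt14 and Krt17.

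The arrays compared wild-type with Mstn-null mice, both C57BL/6J. Mstn encodes myostatin, a secreted inhibitor of muscle growth. RNA of 13.5 d.p.c. (days post coitum) came from the whole embryo, that of 17.5 d.p.c. from the hindquarter and that of d35 (35 days of age) from the pectoralis muscle, so tissue and age cannot be told apart between time points. Each genotype had 5 pools at each time point, and each pool joined RNA of 3 animals (15 animals per genotype and time point). The labels give neither the sex of the animals nor the form of the Mstn deletion, and no probe set names Mstn, so the targeted gene was not analysed here. The labels call the pools biological replicates, and the replicate number is used below as the name of a pool. Whole embryos hold every developing tissue, hindquarters hold skin, limb skeleton and muscle among other tissues, and a dissected muscle holds little epithelium. In such bulk samples, fewer cells of a type and less RNA per cell cannot be told apart. Genes known from skeletal muscle fitted the labelled tissue at d35, where 11 of 13 stood above the reference level defined below. Their median rank was the 99.9 percentile of a chip. In hindquarters 12 of 12 liver genes and 8 of 12 gut genes also stood above it, at median ranks of 97.5 and 59.3. The part of such tissue in the hindquarter keratin levels was not tested.

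Keratins build the intermediate filaments of epithelial cells. A filament forms from type I and type II keratins in equal parts, so cells make the partners together. Krt8 (type II) and Krt18 (type I) serve simple epithelia such as liver, gut and the outer layers of the embryo. Krt5 and Krt14 fill the dividing basal cells of skin, and Krt1 and Krt10 replace them in the suprabasal cells that leave the basal layer. Other keratins are used by mucosa and cornea, by hair follicle sheaths or by the hair shaft. The 44 genes were grouped by these known roles into 5 simple epithelial, 3 basal, 4 suprabasal, 4 mucosal and corneal, 4 stress and appendage, 7 inner root sheath, 10 hair shaft and 7 other keratins.

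Type I genes lie in a cluster on mouse chromosome 11 and type II genes on chromosome 15, except Krt18, a type I gene beside Krt8 on chromosome 15. In the RefSeq annotation of GRCm38.p6, Krt8 spans chr15:101996711-102004342 and Krt18 chr15:102028216-102032026. Krt5 spans chr15:101707069-101712905 and Krt14 chr11:100203162-100207510. Krt1 spans chr15:101845426-101850786 and Krt10 chr11:99385254-99397449. The lines that follow give RefSeq sequence around an annotated start, from 100 bases before it to its first 20 bases, for 5 of the genes with a stage difference described below. They are read 5′ to 3′ on the gene's strand, and capitals mark TATAAA, the core of the TATA box. The stretches are chr11:99389345-99389464 (minus strand) for Krt10, chr15:101869686-101869805 (minus) for the suprabasal Krt77, chr15:101712886-101713005 (minus) for Krt5, chr15:102004323-102004442 (minus) for Krt8 and chr15:102028116-102028235 (plus) for Krt18.
Krt10: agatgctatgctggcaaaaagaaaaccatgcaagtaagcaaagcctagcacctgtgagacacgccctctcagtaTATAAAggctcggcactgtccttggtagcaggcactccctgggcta
Krt77: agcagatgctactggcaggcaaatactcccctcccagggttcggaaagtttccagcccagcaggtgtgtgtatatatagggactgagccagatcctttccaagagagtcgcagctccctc
Krt5: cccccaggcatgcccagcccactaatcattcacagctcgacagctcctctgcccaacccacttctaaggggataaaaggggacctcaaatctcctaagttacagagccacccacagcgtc
Krt8: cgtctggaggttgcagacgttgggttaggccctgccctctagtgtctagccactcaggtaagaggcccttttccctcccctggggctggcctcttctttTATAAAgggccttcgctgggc
Krt18: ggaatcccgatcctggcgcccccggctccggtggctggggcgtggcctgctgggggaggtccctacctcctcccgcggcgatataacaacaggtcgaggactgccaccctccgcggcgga

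The start-site windows (250 bases before to 50 after) of 31 of the 44 keratin genes were at hand, in 32 windows. TATAAA occurred on the gene's strand in 15 of these 32 windows (46.9%) and in 8.32% of all 32851 windows. On either strand it occurred in 53.1% of the keratin windows and 13.6% of all. It lay wholly within the stretch from 40 to 11 bases before the start, where a TATA box lies, in 37.5% of keratin windows and 2.08% of all. Inner root sheath genes held it in 6 of 7 matched genes, hair shaft genes in 3 of 6, simple epithelial genes in 2 of 4, and the 2 matched basal genes in 0. In Krt10 the match began 26 bases before the start, and in Krt8 it began 1 base before it. A match is a run of letters, and no other motif was searched.

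Levels are given as the deposited log2 intensities. Intensity depends on the probes as well as on the transcript, so levels of different genes are not ranked against each other. To judge whether a keratin stood above the dim end of the array, its mean over 10 pools was set against the 95th percentile of olfactory and vomeronasal receptor genes, which few cells outside sensory epithelia use. From the youngest to the oldest time point, that reference level was 7.76, 7.68 and 6.95 on chip A and 7.67, 7.62 and 7.72 on chip B. It rested on 64 receptor probe sets on chip A and only 14 on chip B. At d35 it was passed by 48.9% of probe sets on chip A and 12.6% on chip B, so the chips had unlike thresholds. The keratin counts below use the brightest probe set of each gene, mostly on chip A, while the shares cover all probe sets of both chips. At 13.5 d.p.c. 14 of the 44 keratin genes stood above it, beside 44.5% of all probe sets. At 17.5 d.p.c. 19 stood above it, beside 40.6% of all probe sets, and at d35 10 did, beside 30.9%. There were 6 genes above it at every time point (Krt4, Krt5, Krt42, Krt78, Krt81 and Krt83) and 22 at none. A further 6 stood above it at both prenatal ages and not at d35, namely Krt1, Krt10, Krt14, Krt15, Krt8 and Krt18.

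The groups differed in how they crossed this level. Of the 5 simple epithelial keratins, 2 stood above it at 13.5 d.p.c., 4 at 17.5 d.p.c. and 0 at d35. The 3 basal keratins were all above it in both prenatal tissues. Of them, Krt5 alone was above it in d35 muscle, at a mean level of 7.12 against a reference of 6.95. Suprabasal keratins numbered 2, 3 and 0 of 4. Inner root sheath keratins numbered 1, 0 and 0 of 7, and hair shaft keratins 3, 2 and 2 of 10. The members counted at 17.5 d.p.c. and at no other time point were Krt7 and Krt19, of ducts and other simple epithelia, Krt13 of mucosa, and Krt77. Krt79, a keratin of the hair follicle opening, was counted at d35 alone, with a mean level of 7.60.

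**Figure D1:**
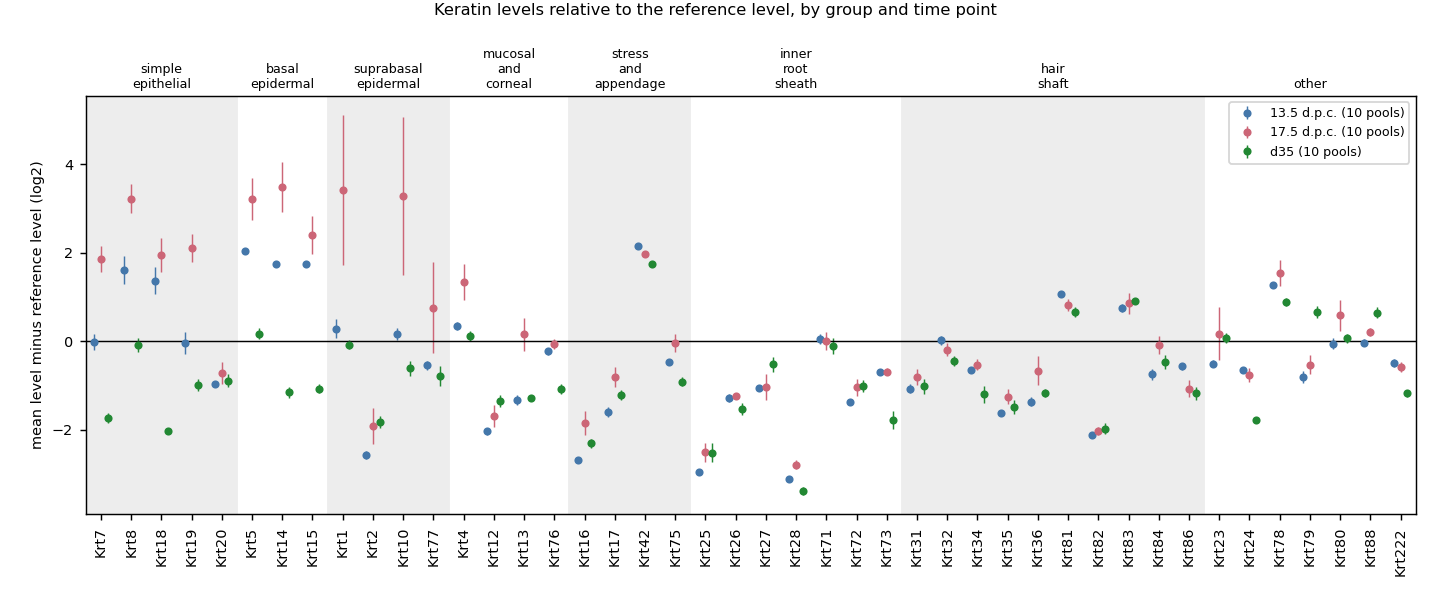
Mean deposited log2 level of each keratin gene over the 10 pools of each time point, minus the reference level of its chip and time point, arranged by group, with bars of 1 SD within genotype. Simple, basal and suprabasal keratins mostly sat highest at 17.5 d.p.c. (Krt1 at a mean level of 11.10) and lower at d35 (Krt1 at 6.86, just under the reference).

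Some members kept a high level in every tissue. Krt42 is a type I keratin of hair and nail. Its brightest probe set lay between 9.64 and 9.94 in the 10 pools at 13.5 d.p.c., between 9.52 and 9.73 at 17.5 d.p.c. and between 9.37 and 9.59 at d35. These levels ranked at the 97.6, 97.7 and 98.4 percentile of chip B. A second probe set of Krt42 stayed between 6.14 and 7.29 over all 30 pools, below the reference at each age, so the probe sets of this gene disagree. The bright one is of a design whose probes can match other transcripts. So are the brightest probe sets of Krt14 in both prenatal tissues and of Krt4 in embryos and d35 muscle. Keratins have many near-identical relatives, so such levels are uncertain as to the gene. Krt78, a type II keratin outside the main groups, stood above the reference throughout, with median levels of 8.94, 9.23 and 8.59.

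Krt81 and Krt83, type II keratins of the hair shaft, also stood above the reference at each age. They had median levels of 8.82, 8.56 and 7.60 and of 8.52, 8.51 and 7.83 from the youngest to the oldest samples. Other members were above it at only some ages, and mostly close to it. Krt32 of the hair shaft (7.60 to 7.88) and Krt71 of the inner root sheath (7.63 to 7.95) straddled the reference of 7.76 in the embryo pools. Krt80 had a median of 8.25 at 17.5 d.p.c. and 7.0031 at d35, while Krt23 had 7.63 and 6.96 and Krt88 had 7.88 and 7.56. Krt23, a type I keratin, ran from 7.31 to 8.93 over the hindquarter pools. Krt13 of mucosa ran from 7.22 to 8.42 there, around the reference of 7.68.

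How each keratin differed between tissues was tested on values that were quantile-normalized over all 30 arrays of a chip, because the deposited values of the time points have different scales. Each gene was read here from the probe set that was brightest over all 30 pools, which for Krt4, Krt13 and Krt17 was not the one that was brightest in hindquarters. Between embryo and hindquarter the keratins mostly rose, and the rise was largest in Krt1 and Krt10, the suprabasal partners. By limma with Storey q under 0.05, 35 of 44 keratin genes were higher at 17.5 than at 13.5 d.p.c. and 5 were lower, beside 42.5% and 43.8% of all probe sets. So many probe sets changed that this rule reached unadjusted p-values up to 0.275, and with Benjamini-Hochberg adjustment 33 keratins were higher and 1 (Krt86 of the hair shaft, -0.41 ± 0.06 SE) lower, beside 36.1% and 37.8%. At a difference of at least 1 on the log2 scale, 8 keratins were higher and 0 lower, beside 3.34% and 2.72% of all probe sets. With the probe sets that were brightest in hindquarters the higher genes numbered 11, because Krt13 then differed by 2.55 ± 0.10 in place of 0.56 ± 0.08, Krt4 by 1.34 ± 0.10 in place of 0.87 ± 0.07 and Krt17 by 1.30 ± 0.06 in place of -0.12 ± 0.05. The probe sets of Krt17 therefore disagreed in direction. Choosing probe sets by their level in hindquarters favours a rise to that age, so the count of 11 leans that way. The median difference was 2.37 for suprabasal, 1.78 for simple epithelial and 1.32 for basal keratins, 0.26 for hair shaft and 0.11 for inner root sheath keratins, and -0.0035 over all probe sets.

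Among the keratins, the suprabasal Krt1 and Krt10 had the widest change between the prenatal ages and also the widest range. Krt1 had a deposited level between 7.50 and 8.40 (median 8.09) over the 10 pools at 13.5 d.p.c., between 8.13 and 13.30 (median 11.24) at 17.5 d.p.c. and between 6.72 and 7.10 (median 6.87) at d35. Its difference between the prenatal ages was 3.33 ± 0.42 (SE, limma, n = 10 pools per age), which is a 10.0-fold change. The Krt1 pools of both ages nevertheless overlapped after quantile normalization, as did those of Krt77 (1.44 ± 0.26). For Krt10 the pools lay between 7.73 and 8.07 at 13.5 d.p.c., between 8.08 and 13.60 at 17.5 d.p.c. and between 6.05 and 6.62 at d35. Its difference between the prenatal ages was 3.31 ± 0.44, a 9.89-fold change, and its pools did not overlap after normalization. The fit shares a variance per gene over all ages. Deposited SDs of Krt1 and Krt10 were 1.70 and 1.78 in hindquarters, against 0.21 and 0.13 in embryos. The SEs of these genes in contrasts with hindquarters, here and below, are therefore too small. Krt2, the late suprabasal keratin, stayed below the reference at each age, with mean levels of 5.19, 5.77 and 5.12.

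Basal keratins rose by less and more evenly. Krt14 pools lay between 9.42 and 9.61 at 13.5 d.p.c., between 9.78 and 11.83 at 17.5 d.p.c., and its brightest prenatal probe set lay between 4.90 and 5.60 at d35. Its difference between the prenatal ages was 1.92 ± 0.15 on the log2 scale. Krt5, its partner, lay between 9.67 and 9.88, then between 9.78 and 11.60, then between 6.88 and 7.35, with a prenatal difference of 1.32 ± 0.13. On these probe sets the later pools of both genes were separate from the earlier ones after quantile normalization. The other 2 probe sets of Krt14 differed by 1.46 ± 0.15 and 0.59 ± 0.05, and on the first of them the pools overlapped. Krt15, a type I keratin of basal cells and follicle stem cells, differed by 0.78 ± 0.11.

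Of the simple epithelial keratins, the ductal members moved most. Krt19 differed by 2.28 ± 0.09 and Krt7 by 2.02 ± 0.09 between the prenatal ages. Krt8 lay between 9.08 and 10.12 at 13.5 d.p.c., between 10.32 and 11.53 at 17.5 d.p.c. and between 6.61 and 7.09 at d35, with a prenatal difference of 1.78 ± 0.12. Krt18, which polymerizes with Krt8, differed by 0.71 ± 0.12, and its pools ran from 8.88 to 9.98 and then from 8.95 to 10.33. Krt20, a keratin of gut and urothelium, had a small difference of 0.36 ± 0.07 and stayed below the reference at each age.

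From hindquarter to d35 muscle the same epithelial groups were lower. A difference of at least 1 was found in 10 lower keratins and 1 higher, beside 9.77% and 7.2% of all probe sets. The lower genes were Krt14 (-5.03 ± 0.15), Krt18 (-3.78 ± 0.12), Krt10 (-3.77 ± 0.44), Krt7 (-3.41 ± 0.09), Krt1 (-3.35 ± 0.42), Krt15 (-3.31 ± 0.11), Krt8 (-3.16 ± 0.12), Krt19 (-2.94 ± 0.09), Krt5 (-2.89 ± 0.13) and Krt77 (-1.40 ± 0.26). With the probe sets that were brightest in hindquarters the lower genes numbered 13, with Krt13 at -2.09 ± 0.10, Krt4 at -1.26 ± 0.10 and Krt17 at -1.21 ± 0.06. On the probe sets brightest over 30 pools these 3 genes had 0.41 ± 0.08, -0.16 ± 0.07 and 0.73 ± 0.05, so Krt13 and Krt17 turned in sign. Probe sets chosen by their hindquarter level favour a fall from it, so the count of 13 leans that way. The size of the Krt14 fall also depended on the probe set, since its other 2 had -2.97 ± 0.15 and -0.45 ± 0.05. All of the 10 genes but Krt5 were below the reference at d35, so the size of the fall depends on how the dim end of the array is scaled. The higher gene was Krt79 (1.38 ± 0.07). Its deposited level ran from 6.84 to 7.50 at 17.5 d.p.c. and from 7.27 to 7.80 at d35. By Storey q 18 keratins were higher and 22 lower, beside 53% and 42.8% of all probe sets, and by Benjamini-Hochberg 15 and 19, beside 47.4% and 38%.

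Between embryo and d35 muscle, 2 keratins were higher by at least 1 (Krt79 at 1.78 ± 0.07 and Krt88 at 1.03 ± 0.04) and 6 lower. Of all probe sets, 9.02% were higher and 12.8% lower by the same rule. The lower genes were Krt14 (-3.11), Krt18 (-3.07), Krt15 (-2.53), Krt5 (-1.57), Krt7 (-1.39) and Krt8 (-1.38). Krt1 and Krt10 differed by -0.02 (95% interval -0.87 to 0.83) and -0.46 (-1.37 to 0.44) between these ages. The fit shares a variance per gene over all ages, so these intervals also carry the spread of the hindquarter pools. On the deposited scale the SD of Krt10 within genotype was 0.13 in embryos, 0.17 in d35 muscle and 1.78 in hindquarters. That of Krt1 was 0.21, 0.11 and 1.70. The intervals are therefore wider than the spread at the ages compared, and a fit of embryo and muscle alone was not run. For Krt10 the difference was larger than these SDs in embryo and muscle, also with array medians (-0.43) and in wild-type pools alone (-0.44). For Krt1 it was smaller than these SDs, at -0.01 and 0.04 by the same alternatives. By Storey q 27 keratins were higher and 15 lower, beside 54.1% and 43.2% of all probe sets, and by Benjamini-Hochberg 26 and 13, beside 48.7% and 38.6%. Several keratins that were higher in d35 muscle were below the reference at both ages compared. Among them Krt2 (0.88 ± 0.12) and Krt12 of the cornea (0.88 ± 0.07) differed from the embryo, and Krt27 of the inner root sheath (0.70 ± 0.08) from the hindquarter. The second probe set of Krt12 differed from the embryo by -0.04 ± 0.07. For these dim genes the difference is on the normalized scale and is not a level above the reference.

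**Figure D2:**
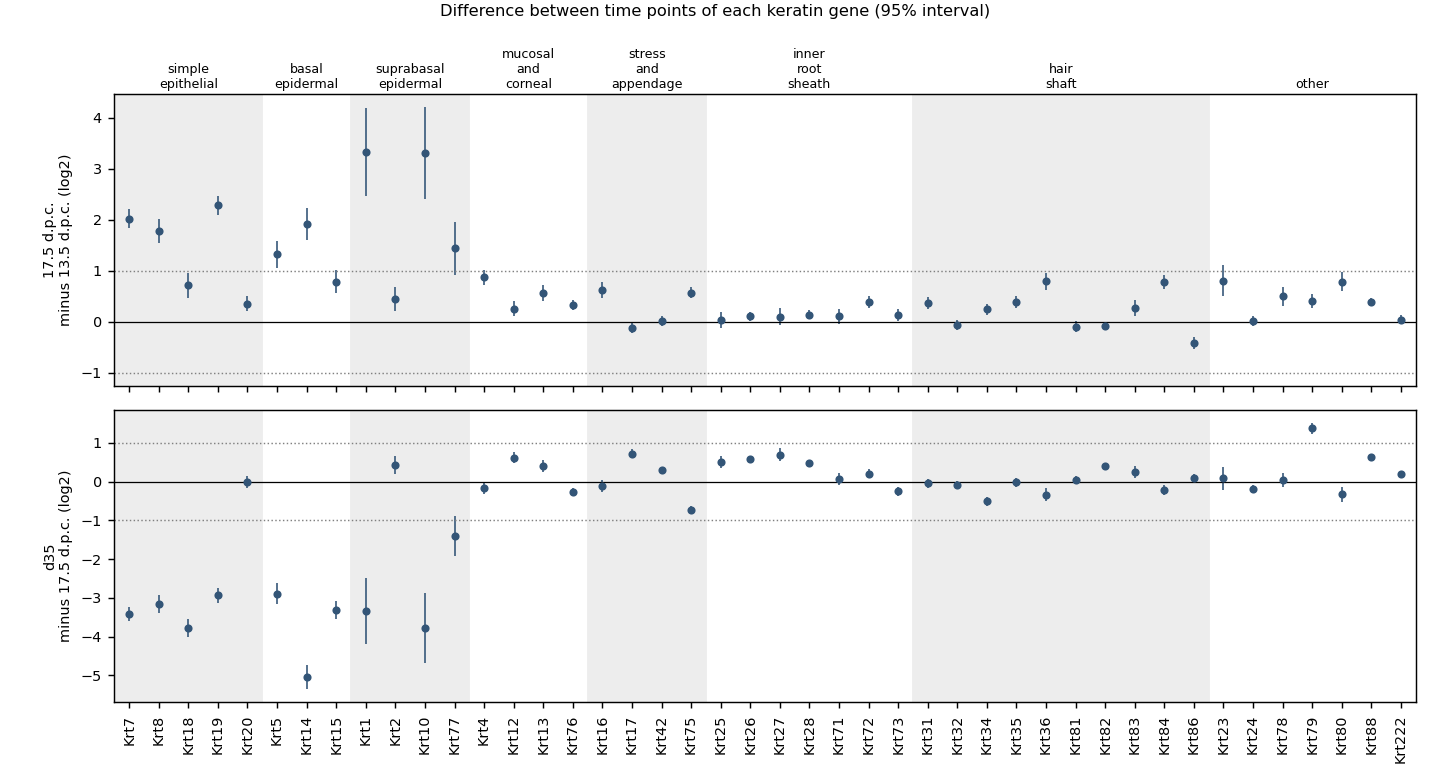
Log2 difference of each keratin gene after quantile normalization, from embryo to hindquarter (upper panel) and from hindquarter to d35 muscle (lower panel). The 95% intervals come from limma over all 30 pools, and each gene is read from the probe set brightest over those pools. Krt1 and Krt10 lead the rise between the prenatal ages (3.33 and 3.31), and Krt14 leads the fall to d35 (-5.03).

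Most other genes of skin and of epithelial junctions rose from embryo to hindquarter, as most keratins did. Of 29 measured genes of the cornified envelope, the protein shell of dead skin cells, 29 were higher at 17.5 than at 13.5 d.p.c. by Benjamini-Hochberg, 19 of them by at least 1. Examples are Lce1c (4.95 ± 0.30) and Hrnr (4.41 ± 0.50), both structural proteins of that shell, and Lor (3.27 ± 0.18), which encodes its main component loricrin. Desmosome genes, which anchor keratin filaments at cell contacts, were higher in 12 and lower in 1 of 15, with Dsc1 at 2.71 ± 0.34 and Dsp, which binds the filaments, at 1.67 ± 0.13. Genes of hemidesmosomes and plakins, which anchor keratins to the basement membrane, were higher in 8 of 8, with the laminin gene Lamb3 at 1.51 ± 0.06. Of 18 genes of epithelial adhesion 15 were higher and 3 lower. Of 23 epithelial transcription factors 12 were higher and 3 lower, with Klf4, a factor of the skin barrier, at 1.59 ± 0.11. Of all probe sets, 36.1% were higher and 37.8% lower by the same rule.

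Genes of other tissues also differed in the same comparison. Gut genes were higher in 11 of 12 and liver genes in 6 of 12, with 0 lower in both lists, and all 13 skeletal muscle genes were higher, beside the same 36.1% of all probe sets higher and 37.8% lower. From 17.5 d.p.c. to d35, cornified envelope genes were lower in 24 and higher in 2 of 29. Desmosome genes were lower in 11 and higher in 3 of 15 (Dsp at -5.01 ± 0.13). Genes of hemidesmosomes and plakins were split, with 4 lower and 4 higher of 8. Epithelial adhesion genes were lower in 15 and higher in 2 of 18, and epithelial transcription factors lower in 12 and higher in 6 of 23. Liver genes were lower in 12 of 12. Of all probe sets, 38% were lower and 47.4% higher. The part of each tissue's amount in the keratin differences was not tested.

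Within the hindquarter samples the suprabasal partners Krt1 and Krt10 varied more between pools than almost any other gene. The SD within genotype was 1.78 for Krt10 and 1.70 for Krt1 on the log2 scale, and of 45037 probe sets 2 and 8 had a larger one. Over the 4 suprabasal keratins the SD went down to 0.41. Wide spread was not limited to skin genes, since the 12 liver genes had a median SD of 1.54 in these pools. The wild-type pools 1 to 5 had Krt10 levels of 10.96, 10.39, 8.08, 13.60 and 10.82, and the Mstn-null pools 10.25, 11.31, 9.01, 11.98 and 13.13. Pool 3 was the lowest in each genotype, the highest pools were wild-type pool 4 and Mstn-null pool 5, and the genotypes overlapped fully.

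The type II partner Krt1 put the pools in the same order as Krt10 within each genotype. Its levels were 11.29, 10.84, 8.13, 13.30 and 11.19 in wild-type pools and 10.40, 11.38, 9.18, 12.22 and 13.09 in Mstn-null pools. The highest pool was 36.1-fold above the lowest for Krt1 and 45.9-fold for Krt10. The third suprabasal member, Krt77, read 8.12, 8.68, 7.39, 9.73 and 7.69 in wild-type pools and 7.81, 8.66, 7.14, 9.95 and 9.26 in Mstn-null pools. Its lowest value was again in pool 3 of each genotype.

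Basal keratins spread less than Krt1 and Krt10. Krt14 had an SD of 0.57, with 396 probe sets above it, and levels of 11.62, 11.10, 9.78, 11.23 and 10.90 in wild-type and 11.59, 11.52, 10.72, 11.32 and 11.83 in Mstn-null pools. Krt5 had an SD of 0.47 and read 11.25, 10.84, 9.78, 10.86 and 10.72 in wild-type and 11.15, 11.27, 10.56, 10.95 and 11.60 in Mstn-null pools. Pool 3 was lowest in each genotype for both genes, while the wild-type pool 4 that led for Krt1 did not stand out. The simple epithelial Krt8 (SD 0.33) and Krt18 (SD 0.37) did not have their lowest values in pool 3, since Mstn-null pool 5 was lowest for both.

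In hindquarters the partners of a filament moved together from pool to pool. At 17.5 d.p.c. the difference between Krt1 and Krt10 had an SD of 0.23, against 1.70 and 1.78 for each gene. The difference between Krt5 and Krt14 had an SD of 0.13, against 0.47 and 0.57. For Krt8 and Krt18 it was 0.11, against 0.33 and 0.37. At 13.5 d.p.c. the partners Krt8 and Krt18 had SDs of 0.31 and 0.31 and their difference 0.09, with wild-type pool 2 highest for both. Krt1 and Krt10 had 0.21 and 0.13 at that age and their difference 0.11. For Krt5 and Krt14 the difference (0.06) varied nearly as much as each gene (0.07 and 0.07). In d35 muscle the difference varied more than either gene did in each of these partnerships (SDs of 0.25, 0.16 and 0.18). All these genes but Krt5 were below the reference there.

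**Figure D3:**
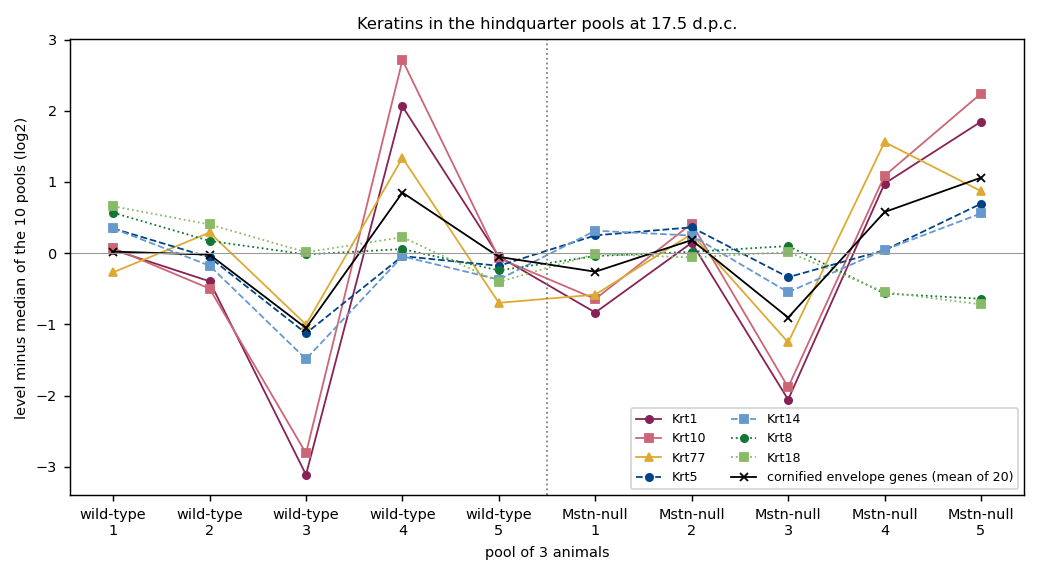
Level of each named keratin in the 5 wild-type and 5 Mstn-null hindquarter pools, as its deposited log2 value minus its median over the 10 pools, with the mean of 20 cornified envelope genes (crosses). Krt1 and Krt10 run together from wild-type pool 3 (levels of 8.13 and 8.08) to wild-type pool 4 (13.30 and 13.60), and Krt8 and Krt18 stay within a narrower band.

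The mean level of the suprabasal keratins above the reference was then set beside that of the cornified envelope genes in the same 10 hindquarter pools. The suprabasal mean ran from 7.86 to 12.2 and that of 20 cornified envelope genes from 8.25 to 10.4. After centring within genotype, Pearson's r was 0.99 and Spearman's rho 0.96, and r was 0.99 without the 2 pools farthest from the median, wild-type pools 3 and 4. Basal and suprabasal means had an r of 0.75 and a rho of 0.72. That relation rested on pool 3 of both genotypes, since r was 0.24 without them. Simple epithelial and liver means had an r of 0.74 and a rho of 0.77, and r was 0.58 without wild-type pool 5 and Mstn-null pool 5. The liver mean was 7.91 in Mstn-null pool 5, between 11.46 and 12.47 in the other 4 Mstn-null pools and between 11.41 and 13.20 in wild-type pools. Simple and basal keratins had an r of 0.29 and a rho of 0.43. These are descriptions over 10 pools of means over chosen genes, 4 relations at each of 3 ages (12 in all), and no p-value is given for them.

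In whole embryos 1 pool stood apart for the simple epithelial keratins. Krt8 levels at 13.5 d.p.c. were 9.08, 10.12, 9.21, 9.23 and 9.34 in wild-type pools and 9.57, 9.18, 9.30, 9.24 and 9.40 in Mstn-null pools. Krt18 levels were 9.01, 9.98, 9.04, 8.88 and 9.11 in wild-type and 9.16, 8.97, 9.07, 9.02 and 9.10 in Mstn-null pools. Wild-type pool 2 was the highest of the 10 for both, and the other 9 pools of the genotypes overlapped.

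The ductal members Krt7 (8.23) and Krt19 (8.26) were also highest in wild-type pool 2, and their other 9 pools ran from 7.60 to 7.79 and from 7.48 to 7.90. Genes of placenta and yolk sac were highest in that pool too. Of 11 measured trophoblast genes 9 were highest there, with a mean level of 7.86 against 5.76 to 5.92 in the other 9 pools, and of 6 yolk sac endoderm genes 5 were, with a mean of 8.05 against 7.01 to 7.16. The trophoblast gene Tpbpa read 9.55 there against 5.04 to 5.16, and Cubn, a receptor of yolk sac endoderm, 8.54 against 6.28 to 6.45. In that pool 56 probe sets exceeded every other pool by over 0.5, and in the other 9 pools 0 to 8 did. These lists were written after the pool's values were seen, and the part of such tissue in the keratin levels was not tested. Without that pool the wild-type minus Mstn-null difference was -0.12 for Krt8 and -0.05 for Krt18, and with it 0.06 and 0.14.

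**Figure D4:**
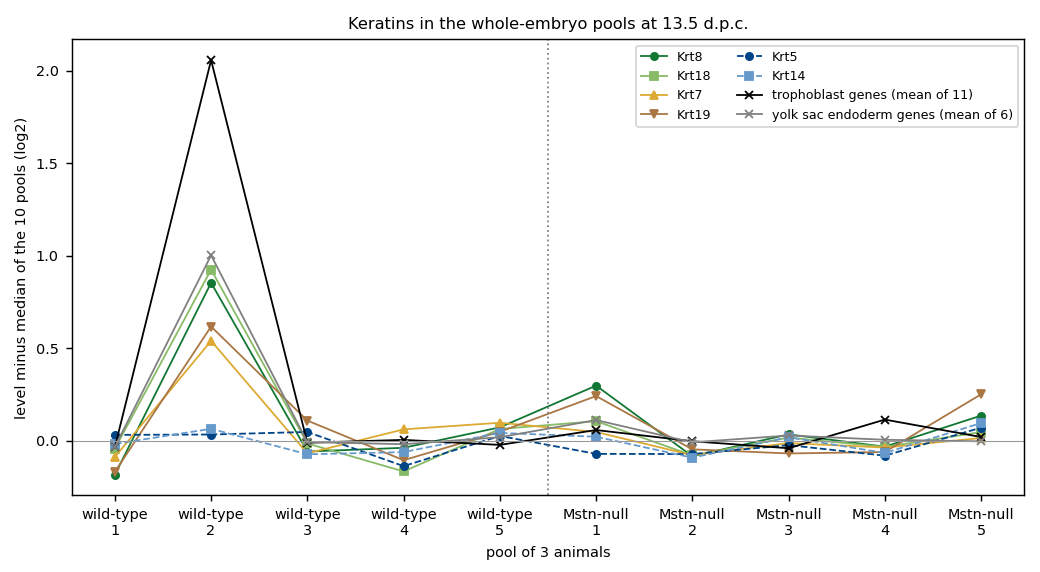
Level of simple epithelial and basal keratins in the 5 wild-type and 5 Mstn-null embryo pools, as the deposited log2 value minus its median over the 10 pools, with the means of 11 trophoblast and 6 yolk sac endoderm genes (crosses). Wild-type pool 2 stands above the other 9 for Krt8 (level 10.12) and Krt18 (9.98), and not for Krt5 and Krt14.

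The skin keratins of embryos spread little by comparison. The SD was 0.07 for both Krt5 and Krt14 and 0.21 for Krt1, while it was 0.31 for Krt8. Suprabasal and cornified envelope means had an r of 0.34 and a rho of 0.41 at this age. Basal and suprabasal means had an r of 0.82 and a rho of 0.61, which became an r of 0.56 without wild-type pool 4 and Mstn-null pool 4. Simple epithelial and liver means had an r of 0.85 and a rho of 0.85, and r was 0.70 without wild-type pool 2 and Mstn-null pool 1. In d35 muscle the simple and basal means had an r of 0.83 and a rho of 0.83, with r at 0.72 without Mstn-null pools 1 and 4. However, nearly all of these members were below the reference there.

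Whether loss of myostatin went with other keratin levels was tested within each age by limma, as wild-type minus Mstn-null, with Storey q-values over all 45037 probe sets. In embryos 0 of 44 keratin genes were called, beside 0.54% of all probe sets, and 6 had an unadjusted p under 0.05, beside 11.3%. In hindquarters 0 were called, beside 0% of all, and 2 had an unadjusted p under 0.05, beside 2.43%. In d35 muscle 1 was called, beside 4.58% of all, and 3 had an unadjusted p under 0.05, beside 17.9%. At each age 0 keratins had genotypes without overlap, beside 2.4%, 0.535% and 5.25% of all probe sets. The keratins were higher in wild-type pools in 20, 16 and 21 of 44 genes, and their median difference was -0.01, -0.03 and -0.02. Of all probe sets, 50.3%, 50.5% and 44.0% were higher in wild-type pools, with median differences of 0.0005, 0.001 and -0.014.

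The called keratin was Krt4, a type II keratin of mucosal epithelium, in d35 muscle. Its brightest probe set read 7.73, 7.83, 7.57, 7.73 and 7.65 in wild-type pools and 8.18, 7.82, 7.94, 7.92 and 7.9987 in Mstn-null pools. Mstn-null pools were higher except that pool 2 of each genotype met at the border. The difference was -0.27 ± 0.07 (SE, n = 5 pools per genotype) with a limma q of 0.0338. The call was weak. With Benjamini-Hochberg adjustment the limma p became 0.0526 (2.94% of all probe sets passed that adjustment), with the replicate numbers as a block limma's q was 0.0532, and in a single fit of all 30 pools it was 0.0961. Of the 10 fits with 1 pool left out, 7 lost the call, with q-values up to 0.109, and the call remained without wild-type pool 2, wild-type pool 4 or Mstn-null pool 2.

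The other probe set of Krt4 was below the reference in d35 muscle. Its levels were 6.65, 6.61, 6.85, 6.80 and 6.69 in wild-type and 6.86, 6.91, 7.12, 6.79 and 6.88 in Mstn-null pools. It had a difference in the same direction of -0.19 ± 0.07 and a limma q of 0.0980. RNA quality, read as the 3′ minus the 5′ actin probe set on the same chip, ran from 0.208 to 0.584 in wild-type and from 0.156 to 0.278 in Mstn-null pools at d35. Without wild-type pool 2, which had the highest of these values, the Krt4 difference was -0.30, and other parts of RNA quality in it were not tested.

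In hindquarters Krt4 leaned the other way. Its brightest probe set there read 9.45, 8.96, 8.95, 10.12 and 8.82 in wild-type and 9.0043, 8.58, 8.68, 8.88 and 8.73 in Mstn-null pools. The difference was 0.49 ± 0.22 with an unadjusted limma p of 0.0472, and it was not called. Without wild-type pool 4, the highest pool, it was 0.27. The change of genotype difference from d35 to 17.5 d.p.c. was tested as an interaction on the probe set that is brightest over 30 pools. On that probe set the genotype difference was 0.28 in hindquarters and -0.27 in d35 muscle. The interaction was 0.55 ± 0.14 with a limma q of 0.0438. Krt4 was the 1 keratin called in this comparison, beside 0.715% of all probe sets. With Benjamini-Hochberg adjustment limma gave 0.0608, and 24 of 30 fits that left out 1 pool lost the call. The fit shares a variance per gene over all ages. Pools of this probe set ran from 7.90 to 8.14 in embryos, 8.25 to 9.23 in hindquarters and 7.57 to 8.18 at d35. Embryo pools do not enter the difference, yet limma's q was 0.0503 without embryo wild-type pool 2 and 0.0557 without embryo wild-type pool 5. The SE and q of this interaction therefore lean on the quieter embryo pools. Between embryos and hindquarters 0 keratins had a called interaction, beside 0% of all, and between embryos and d35 muscle 0 had, beside 1.17%.

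In hindquarters, where 50.5% of all probe sets had positive differences, the groups of keratins leaned in different directions without a call. All 5 simple epithelial keratins had positive differences (median 0.27), with Krt18 at 0.44 ± 0.21 and Krt8 at 0.33 ± 0.18. Krt8 levels were 11.53, 11.13, 10.94, 11.02 and 10.72 in wild-type and 10.92, 10.98, 11.06, 10.39 and 10.32 in Mstn-null pools. Krt18 levels were 10.33, 10.07, 9.68, 9.90 and 9.27 in wild-type and 9.66, 9.61, 9.69, 9.13 and 8.95 in Mstn-null pools. The genotypes overlapped for both genes. Liver genes, which come from another simple epithelium, had positive differences in 12 of 12 (median 1.29). That median rested largely on Mstn-null pool 5, the pool with the lowest liver mean and the lowest Krt8 and Krt18, and without it the median was 0.45, still with 12 of 12 positive. The simple epithelial median ran from 0.16 without wild-type pool 1 to 0.40 without wild-type pool 5, and was 0.17 without Mstn-null pool 5. Krt8 had 0.22 without wild-type pool 1. The part of liver in these differences was not tested.

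The skin groups leaned to the Mstn-null side. All 3 basal keratins had negative differences (median -0.41), with Krt14 at -0.47 ± 0.31 and Krt5 at -0.41 ± 0.26, and 3 of 4 suprabasal keratins did (median -0.27). Without wild-type pool 3 the differences shrank to -0.18 for Krt14, -0.18 for Krt5 and -0.18 for the basal median, and over all left-out pools that median reached -0.55. Of 29 cornified envelope genes 4 had positive differences, but 19 did without wild-type pool 3 and 20 without Mstn-null pool 5. The suprabasal median likewise turned to 0.20 and 0.14 without these pools. For Krt1 the difference was -0.30 (95% interval -2.32 to 1.71) and for Krt10 -0.36 (-2.48 to 1.75), so the spread between pools leaves room for changes of several fold in either direction. Leaving out wild-type pool 3 turned the sign for both, to 0.40 for Krt1 and 0.31 for Krt10, and leaving out Mstn-null pool 5 turned it to 0.15 and 0.14.

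The smallest p in hindquarters belonged to Krt17, a type I keratin of skin appendages and wounded skin. It read 6.99, 6.51, 6.49, 6.70 and 6.60 in wild-type and 7.29, 7.21, 6.82, 6.84 and 7.28 in Mstn-null pools, and the genotypes overlapped in part. The difference was -0.43 ± 0.13 with an unadjusted limma p of 0.00578 and a q of 0.99995, at levels below the reference. The second probe set of Krt17 had a difference of 0.09, so the probe sets disagreed in direction.

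In embryos the keratins with the smallest p-values also lay below the reference. Krt86 had a difference of -0.16 ± 0.05 with an unadjusted limma p of 0.00655 and a q of 0.173. Krt13 (-0.18 ± 0.06), Krt26 of the inner root sheath (0.15 ± 0.05) and Krt23 (-0.13 ± 0.05) followed. Krt42 (0.12 ± 0.04), also with an unadjusted p under 0.05, stood above it. The second probe set of Krt42, below the reference, did not lean to wild-type. It read 6.70, 6.78, 6.92, 6.81 and 6.84 in wild-type and 6.82, 6.84, 6.79, 6.83 and 6.88 in Mstn-null pools. The actin measure of RNA quality did not overlap between genotypes on chip B at this age, at 0.160 to 0.234 in wild-type and 0.290 to 0.318 in Mstn-null pools, and its part in these differences was not tested. Krt1 differed by -0.21 ± 0.10 (-0.11 without wild-type pool 4) and Krt10 by 0.08 ± 0.07, in opposite directions for partners of the same filament, and neither was called.

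**Figure D5:**
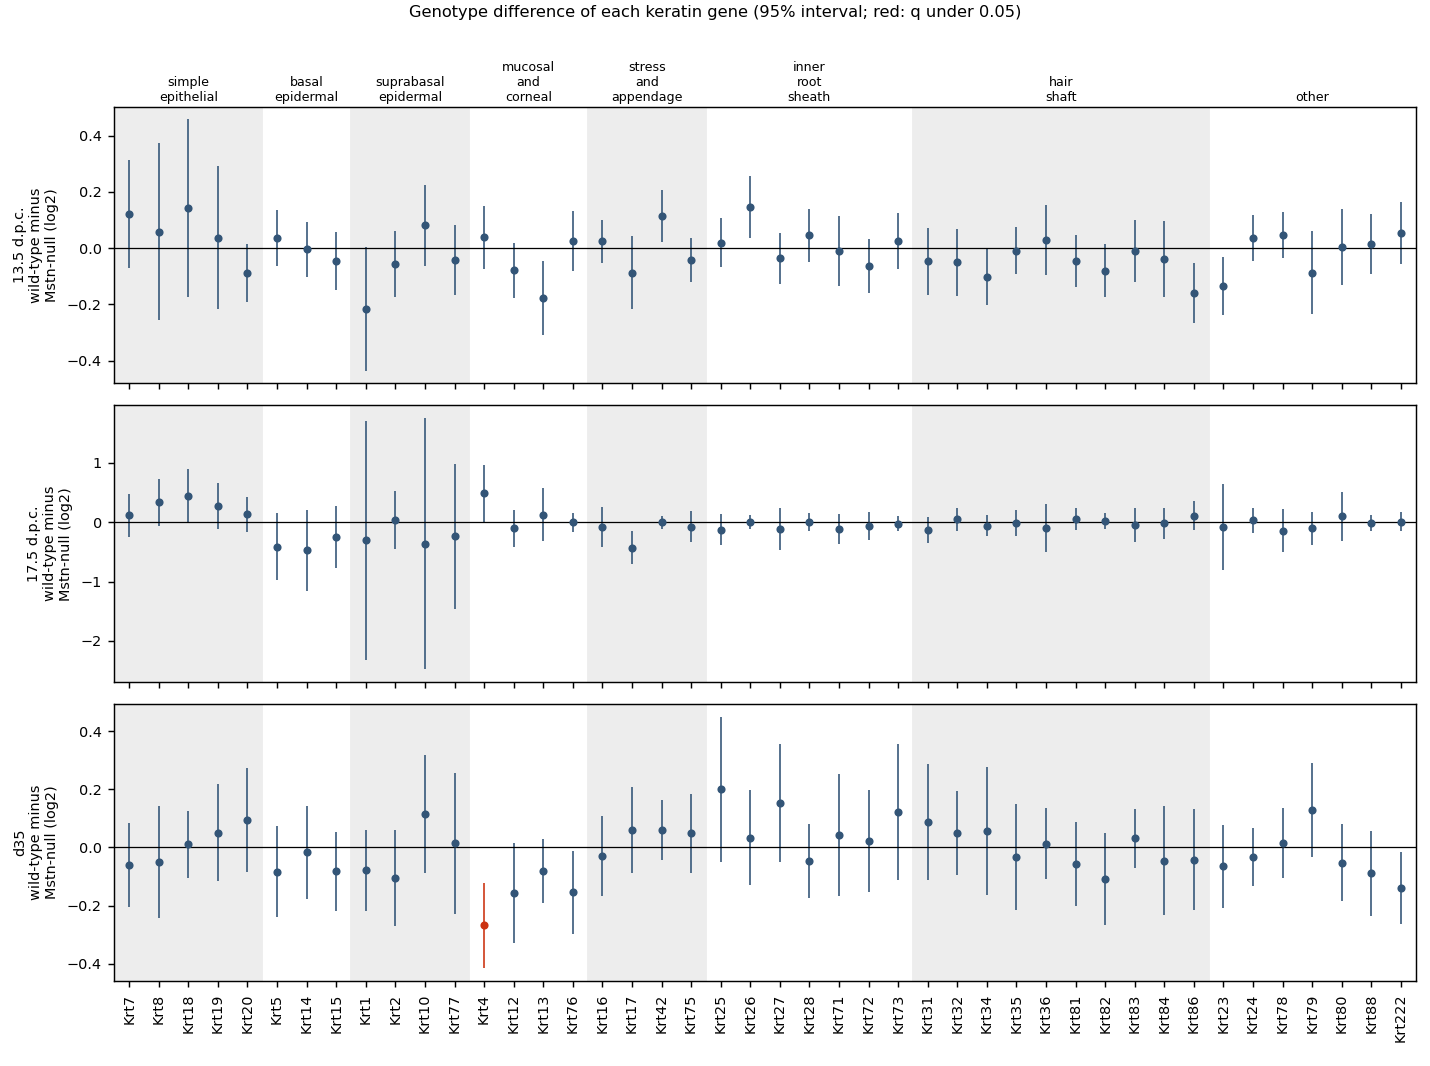
Wild-type minus Mstn-null difference of each keratin gene on the log2 scale at each time point, with 95% limma intervals over 5 pools per genotype and a wider axis for 17.5 d.p.c. Krt4 at d35 (-0.27) is the called keratin, and the intervals of Krt1 and Krt10 at 17.5 d.p.c. are the widest.

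The related lists gave few calls by genotype. In embryos and hindquarters 0 of their 150 measured genes were called, beside 0.54% and 0% of all probe sets. In d35 muscle 3 were (2%), beside 4.58% of all probe sets, and all 3 were lower in wild-type pools. These were Klf5, a factor of dividing epithelial cells also found in muscle (-0.47 ± 0.09, q = 0.0118 by limma), Actn3 of fast muscle fibres (-0.20 ± 0.04, q = 0.0166) and Myh8, the perinatal myosin (-0.44 ± 0.10, q = 0.0168). Genes of the desmosome, of hemidesmosomes and of the cornified envelope had 0 calls at any age. Of 10 fits with 1 pool left out, Actn3 lost its call without wild-type pool 3 (q = 0.0627 by limma), and Klf5 and Myh8 lost theirs in 0.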

How the data were processed

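The deposited values were log2 intensities that the authors made with RMA in the R package affy (versions not given in the sources used here) from Affymetrix MOE430A and MOE430B arrays, 60 arrays for 30 pools. Medians of arrays differed between time points (on chip A they lay between 8.05 and 8.09, between 7.78 and 7.86 and between 6.88 and 6.94) and hardly within them, so genotypes were compared within a time point. Control probe sets (64 per chip) were left out and 100 probe sets present on both chips were read from chip A, which left 45037. Arrays were assigned by title, and 0 pairs of arrays were identical. Gene symbols came from the platform annotation, and all 44 keratin genes matched RefSeq. The number of pools limits the precision, since intensities hold no counts.

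Genotypes were compared with limma 3.58.1 (lmFit, eBayes) in R 4.3.3 and Storey q-values under 0.05, as the study's methods did. Stages were compared in a fit of 6 groups after quantile normalization per chip, with the probe set that was brightest over 30 pools, and the interaction on the deposited values. Scripts were tested on simulated data. Named genes were up to 4 keratins per group and age with the highest mean above the reference, those called by genotype, the 3 smallest p in each direction at an age without a call, the 5 largest stage differences in each direction and up to 3 genes of a related list. Filament partners, Lor, Krt20 and the genes of the pool that stood apart were added after their values were seen. Members, groups and lists were chosen with earlier results of these data known, and the trophoblast and yolk sac lists, array medians and probe sets brightest at 17.5 d.p.c. for stage counts, left-out pools for the lists and the Benjamini-Hochberg stage counts by group after the values were seen. Alternatives covered p adjustment, the reference level, the probe set rule, normalization, a single fit, a replicate block and each pool left out. The labels tie the replicate numbers to no shared batch, and same-numbered pools did not all deviate together (a correlation over 0.1 for every number), so they were not taken as pairs. Over the 5 numbers these correlations ran from -0.10 to 0.08 at 13.5 d.p.c. and from -0.17 to 0.14 at d35, while at 17.5 d.p.c. they were 0.30, 0.39 and 0.48 for numbers 1, 3 and 5 and -0.20 and -0.07 for numbers 2 and 4. Figures were drawn in Python 3.11.15.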

Additional observations from a re-analysis of the deposited data

Results flagged for a closer look

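In 6 of 74 groups of 5 pools, 1 pool lay far from the others by Dixon's test, which chance does in about 1 group in 20. At 13.5 d.p.c. wild-type pool 2 was high for Krt8 (10.12, others 9.08 to 9.34) and for Krt18 (9.98, others 8.88 to 9.11). Wild-type pool 4 was low for Krt5 (9.67, others 9.84 to 9.86) and Krt10 (7.76, others 7.97 to 8.06) at that age. Mstn-null pool 3 was low for Krt13 at 17.5 d.p.c. (7.22, others at least 7.86) and for Krt79 at d35 (7.27, others 7.58 to 7.65). The genotype difference of Krt4 differed between 17.5 d.p.c. and d35 by 0.55 on the log2 scale in the limma interaction (q = 0.0438). That q rests on a variance that also draws on the quieter embryo pools.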

How the results depend on the processing

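The number of keratin genes above the reference level moved with its definition, from 14, 19 and 10 at the successive ages to 9, 12 and 3 with the 99th percentile of the receptors and to 31, 34 and 35 with the 25th percentile of all probe sets. The 1 genotype call at d35 became 0 under Benjamini-Hochberg adjustment, a single fit of 30 pools and the replicate block, and ranged from 0 to 1 when each pool was left out. With the replicate block no other call by genotype changed, and the replicate numbers matched a pool's closest partner in 1, 3 and 1 of 5 numbers. Over left-out pools the Krt4 difference at d35 ran from -0.31 to -0.22. The sign of a single gene turned for Krt17 at 17.5 d.p.c. with the probe set that was brightest over 30 pools (0.0915), and over left-out pools for Krt8 (-0.12 to 0.14), Krt18 (-0.0514 to 0.22) and Krt14 (-0.0264 to 0.0204) at 13.5 d.p.c. and for Krt1 (-0.89 to 0.40), Krt10 (-1.07 to 0.31) and Krt77 (-0.60 to 0.11) at 17.5 d.p.c., none of which was called. Median differences of keratin groups moved by less than the SD of the group mean over pools in all 166 alternatives, a rule that ignores direction. Some turned in sign over left-out pools. The suprabasal median at 17.5 d.p.c. ran from -0.74 to 0.20 and the simple epithelial median at 13.5 d.p.c. from -0.09 to 0.14. The basal median at 13.5 d.p.c. and the median of all keratins at each age also crossed zero.

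Requiring a stage difference of at least 1 left 8 higher and 0 lower keratins from 13.5 to 17.5 d.p.c., 1 and 10 from 17.5 d.p.c. to d35, and 2 and 6 from 13.5 d.p.c. to d35. The 5 keratins lower at 17.5 than at 13.5 d.p.c. became 1 with Benjamini-Hochberg adjustment and 1 with wild-type pools alone. With array medians in place of quantile normalization, 4 keratins were higher by at least 1 from 13.5 d.p.c. to d35. The median of all probe sets then moved to 0.07, 0.03 and 0.16 for the 3 contrasts. With the probe sets that were brightest at 17.5 d.p.c., 11 keratins were higher by at least 1 from 13.5 to 17.5 d.p.c. and 13 lower from 17.5 d.p.c. to d35. That choice favours a high level at 17.5 d.p.c., so it can raise both counts. The interaction count of 1 between 17.5 d.p.c. and d35 became 0 with Benjamini-Hochberg adjustment and ranged from 0 to 1 over left-out pools, where the Krt4 interaction ran from 0.44 to 0.62.

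With all members in place of those above the reference, suprabasal and cornified envelope means had an r of 0.70 at 13.5 d.p.c. and 0.31 at d35, and without centring simple epithelial and liver means had an r of 0.67 at 13.5 d.p.c. Over left-out pools r ran from 0.60 to 0.90 for basal and suprabasal and from 0.10 to 0.67 for suprabasal and cornified envelope means at 13.5 d.p.c. It ran from 0.72 to 0.92 for simple epithelial and liver means in hindquarters. In d35 muscle it ran from -0.41 to 0.59 for basal and suprabasal and from -0.28 to 0.33 for suprabasal and cornified envelope means. For simple and basal means it ran from 0.73 to 0.93 there. The data hold no detection calls, so differences below the reference level are limited by background.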
